A study of Mus musculus with 12 samples.

Results

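The granule proteins of neutrophils were followed at the RNA level in whole blood through 31 genes, chosen by name from the 55367 mouse genes of the count table. They fall into an azurophil class of 6 genes, a specific class of 15, a gelatinase class of 4 and 6 other granulocyte genes. The blood came from CB17-SCID mice that carried HT1376 tumours, grown from a human cell line of bladder cancer. For 11 days each mouse received vehicle or CPI0209, an inhibitor of the Polycomb methyltransferases EZH2 and EZH1, given by mouth once daily at 35 mpk (mg per kg). CPI0209-treated mice were bled 1, 6 or 24 h after the last dose, with 3 libraries at each time, and 3 libraries came from vehicle-treated mice, whose bleeding time was not given in the sources used here. All groups share the strain, the xenograft and the 11 days of dosing, and age was not given in the sources used here. SCID mice lack mature T and B cells and keep myeloid and NK cells. In these libraries the summed level of 6 T cell markers was 0.650 to 6.25 CPM (counts scaled to a common library size).

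A neutrophil makes its granules one after another while it matures in the bone marrow. Azurophil granules, with myeloperoxidase and the serine proteases, form at the promyelocyte stage, specific granules with lactoferrin form at the myelocyte stage, and gelatinase granules form last. The messenger RNAs follow this order, so blood with many mature neutrophils holds much less azurophil RNA than bone marrow does, and specific granule RNA in blood is known to rise when younger neutrophils are released.

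Library totals were 6496573 to 9978215 counts, of which the 31 genes took 0.563% to 1.05%. CPM here uses library sizes scaled by TMM, a method that balances libraries on the bulk of their genes, and the TMM factors were 0.766 to 0.812 at 6 h against 1.03 to 1.12 in vehicle, 1.00 to 1.09 at 1 h and 0.856 to 1.33 at 24 h. Reticulocyte markers moved with the 6 h group: the summed level of 17 of them was 38857 to 44648 CPM in vehicle, 44743 to 52208 at 1 h, 74442 to 86738 at 6 h and 22435 to 64406 at 24 h. Among the 24 h libraries replicate 3 stood apart, with a reticulocyte sum of 64406 CPM against 22435 and 31380.5 CPM and a TMM factor of 0.856 against 1.33 and 1.21. Vehicle replicate 3 stood apart for the granule genes, since it was the highest of the 3 vehicle libraries for 28 of 31 genes, all but Ceacam1, Lyz2 and Cst7. Its summed level of 25 mature neutrophil markers was 14170 CPM, against 8066 and 10067 CPM in the other vehicle libraries. At 6 h replicate 3 held the highest sum, 14877 CPM, against 11180 and 10184 CPM in the other 6 h libraries. Over all 12 libraries 6 h replicate 3 was the highest for 11 of the 31 granule genes and vehicle replicate 3 for 10. In bulk blood fewer cells of a type and less RNA per cell cannot be told apart. Nothing in the labels says that the 3 libraries of a group came from separate mice, so p-values measure the spread between these libraries, which may be technical.

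Levels ran from Lyz2 and Ngp at the top to Ctsg and Ms4a3, of the azurophil class, at the bottom. Per kilobase of exon, Lyz2 (lysozyme, which monocytes also make) was highest in vehicle at 3233 ± 361 CPM per kb (SD, n = 3). Next came Ngp, a cystatin-related neutrophil granule protein, at 959 ± 577, Anxa1 (annexin A1) at 240 ± 65.1 and Lcn2, the siderophore-binding lipocalin, at 207 ± 125. The 3 vehicle libraries of Lyz2 lay above those of Ngp, and those of Ngp above those of Anxa1, while Anxa1, Lcn2 and Mmp8 overlapped, so the order of these last 3 is not beyond their spread. The azurophil genes were low. Elane (neutrophil elastase) was at 1.88 ± 1.52 CPM per kb and Prtn3 (proteinase 3) at 1.55 ± 0.504, with means above the specific granule genes Fcnb at 0.873 ± 0.644 and Itgb2l at 0.705 ± 0.251. The vehicle libraries of Elane overlapped those of Fcnb and Itgb2l, and those of Prtn3 overlapped those of Fcnb. Of 46 vehicle counts of Elane, 28 came from replicate 3. Mpo (myeloperoxidase) was at 0.661 ± 0.330 CPM per kb, Prss57 (neutrophil serine protease 4) at 0.436 ± 0.245, Ctsg (cathepsin G) at 0.193 ± 0.185 and Ms4a3, a membrane protein of early myeloid cells, at 0.135 ± 0.234. The plot of levels per kilobase shows azurophil genes below 4 CPM per kb in all 12 libraries, and vehicle means above that for all specific granule genes but Abca13, Fcnb and Itgb2l.

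**Figure D1:**
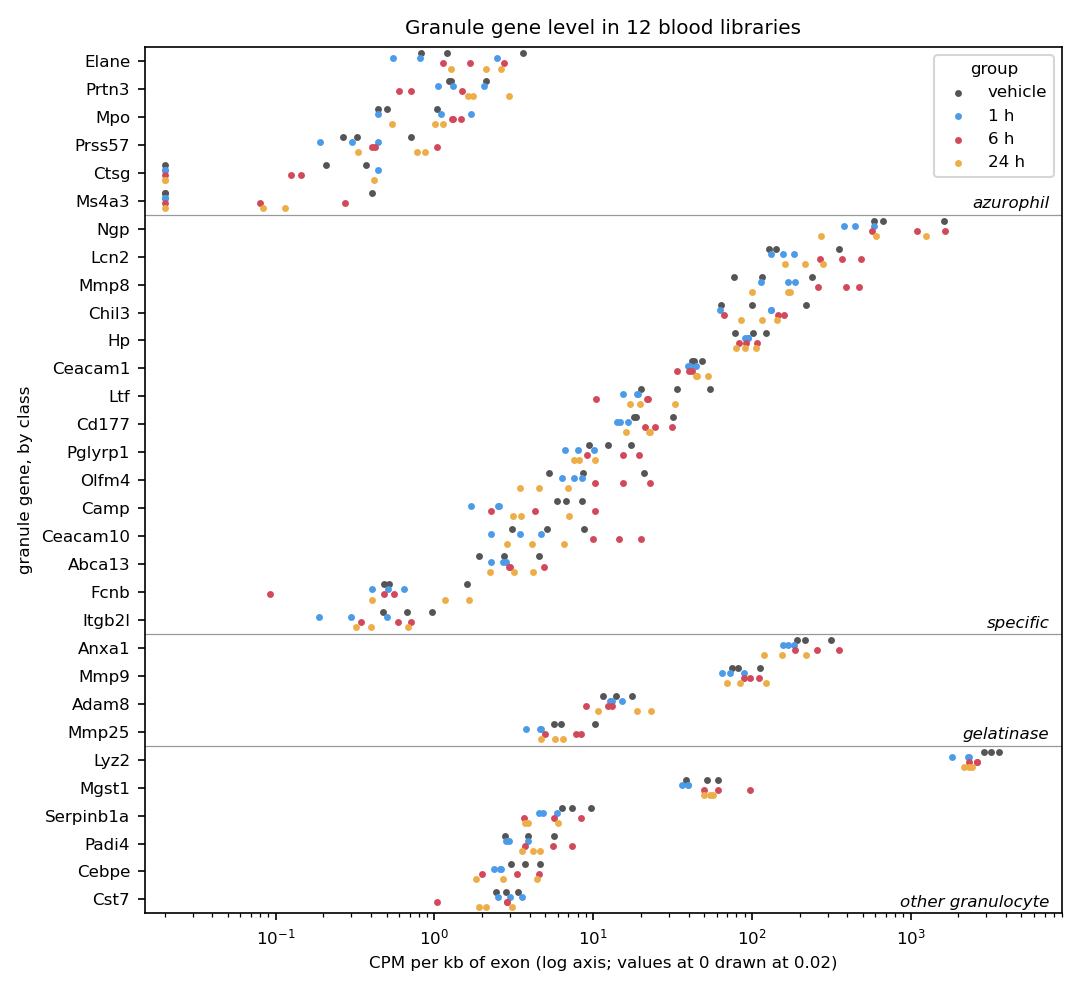
Level of each of the 31 granule genes in CPM per kb of exon (log axis, with 0 drawn near the left edge) in 12 blood libraries, coloured by group and ordered within each class by the vehicle mean. Lyz2 and Ngp stand highest by their vehicle means, Ctsg and Ms4a3 lowest, and for Mmp8 and Ceacam10 all 3 points at 6 h lie to the right of the vehicle points.

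A filter on low counts kept 29 of the 31 genes for testing. Ctsg with 15 counts over the 12 libraries and Ms4a3 with 14 were not tested, and Ms4a3 had 0 counts at 1 h, which allows a level of up to 0.118 CPM over that group.

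Blood taken 6 h after the last dose carried more Mmp8 than vehicle blood, and it was the only granule gene called. Mmp8 encodes neutrophil collagenase, a specific granule metalloprotease that cuts fibrillar collagen. Its level was 189, 281 and 578 CPM in vehicle, 276, 412 and 452 CPM at 1 h, 954, 630 and 1148 CPM at 6 h and 243, 410 and 420 CPM at 24 h. All 3 libraries at 6 h lay above all others, and the vehicle, 1 h and 24 h libraries overlapped. At 6 h the log2 fold change against vehicle was 1.38 (SE 0.37, 2.61-fold, edgeR quasi-likelihood test, adjusted p = 0.046), from 349 ± 204 to 911 ± 262 CPM (SD, n = 3). Over all 13384 genes tested, 4.84% were called at 6 h, 4.06% as higher and 0.785% as lower, so 1 of 29 granule genes is a share near the background. Besides Mmp8, Ceacam10 and Lcn2 with positive and Ltf with negative fold changes had an unadjusted p under 0.05, in all 4 of 29 genes, where 19.6% of all genes had one. The fold change was 0.94 to 1.51 under the other scalings, filters and tools tried. With library totals alone it missed the threshold (adjusted p = 0.060), and of 12 fits that each left out 1 library 3 passed. Without vehicle replicate 3 it was 1.94 (adjusted p = 0.0093). Without 24 h replicate 3 Mmp8 and Ceacam10 were both called, where 8.99% of all genes were. Scaled by library totals alone, where the median of all genes moved to -0.50, the 6 h comparison gave 0 higher and 3 lower granule genes (Ceacam1, Ltf and Lyz2) in place of 1 higher and 0 lower. Of all genes it called 2.57% higher and 11% lower, so 3 of 29 lower is a share near the background.

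Ceacam10 followed the same course at a lower level. It encodes a secreted member of the carcinoembryonic antigen family and is co-expressed with specific granule genes. Its level was 4.65, 7.63 and 13.1 CPM in vehicle, 3.40, 7.07 and 5.17 CPM at 1 h, 22.0, 14.97 and 30.2 CPM at 6 h and 4.31, 6.17 and 9.85 CPM at 24 h. As with Mmp8, the 6 h libraries were above the other 9. Against 1 h it rose at 6 h by a log2 fold change of 2.09 (SE 0.41, 4.26-fold, adjusted p = 0.049), where 0.493% of all genes were called and 0.134% as higher. From 6 to 24 h it fell by 1.74 on the log2 scale (SE 0.41, 3.33-fold, adjusted p = 0.048), where 1.76% of all genes were called and 1.25% as lower. Against vehicle the 6 h change was 1.41 (SE 0.40), with an adjusted p of 0.060 that missed the threshold. Ceacam10 was the only granule gene called in either comparison of times. Both calls sat at the threshold: 4 of the 12 leave-one-out fits kept the first and 2 kept the second. Without 24 h replicate 3 there were 5 granule genes called at 6 h against 1 h (9.12% of all genes) and 4 at 24 h against 6 h (15.9% of all genes). With DESeq2 size factors the first had an adjusted p of 0.0501, and scaled to mature neutrophil counts the second had an adjusted p of 0.097. With only the groups compared in the fit the second had an adjusted p of 0.19. Reads of the closely related and much more abundant Ceacam1 could be split between the genes by the counting. Ceacam1, an adhesion receptor, had 24608 counts over the 12 libraries against 1009 for Ceacam10, and its log2 fold change at 6 h was -0.20 (SE 0.15, adjusted p = 0.49).

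**Figure D2:**
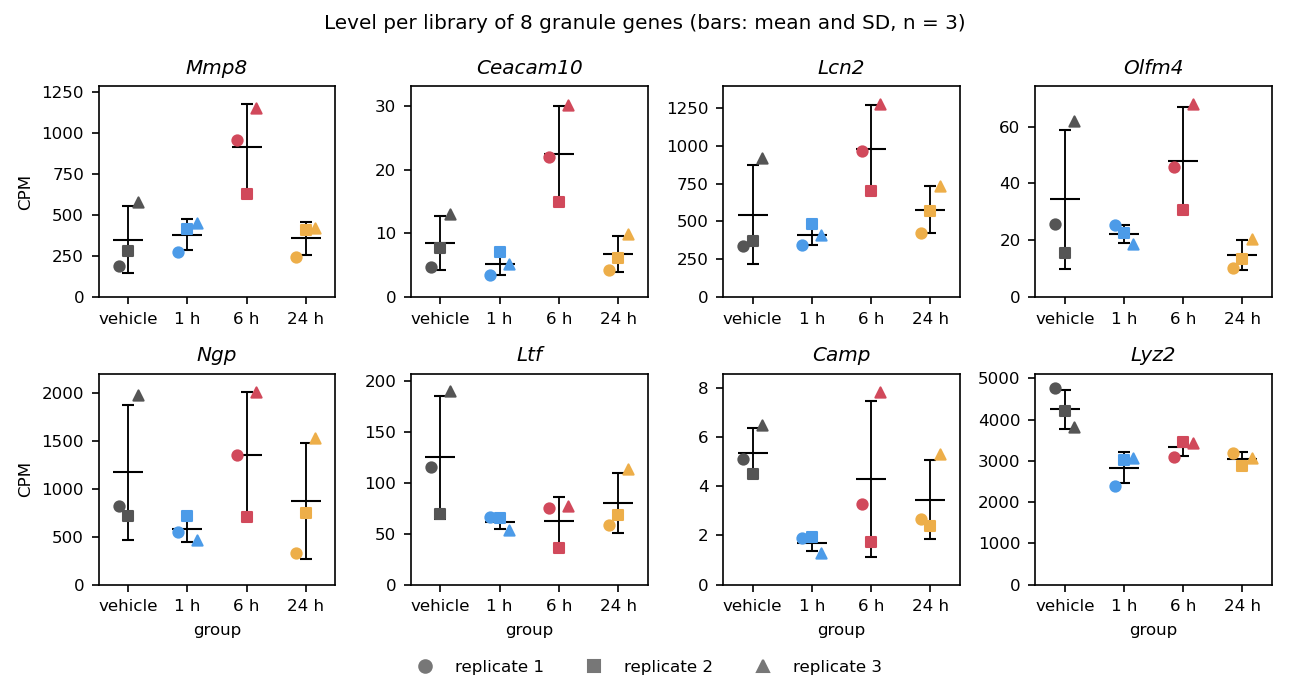
Level in CPM of 8 granule genes in each of the 12 libraries, by group, with the mean and SD of 3 libraries as bars and the replicate number as the symbol. Mmp8 and Ceacam10 are highest in the 3 libraries at 6 h, Lyz2 is highest in the 3 vehicle libraries, and the triangle of vehicle replicate 3 lies above the other vehicle points in all but Lyz2.

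Mmp8 and Ceacam10 lie on different chromosomes, and 4 of the 31 genes (Ltf, Ngp, Camp and Mmp8) lie on chromosome 9. In the GENCODE M21 annotation of GRCm38 the Mmp8 gene (ENSMUSG00000005800) spans chr9:7558456-7568485 and the Ceacam10 gene (ENSMUSG00000054169) spans chr7:24777206-24784657, both on the plus strand. Ltf (ENSMUSG00000032496) spans chr9:111019271-111042767 and Ngp (ENSMUSG00000032484) spans chr9:110419747-110423012, also on the plus strand. At 6 h the libraries of Mmp8 and Ceacam10 were above vehicle, and those of Ngp and Ltf overlapped it. Of these 4 genes only Mmp8 was called against vehicle, and the negative fold change of Ltf did not pass. Because of these different courses the 250 bases before the start site of these 4 genes are shown. They come from RefSeq on GRCm38.p6, plus strand, 5′ to 3′, and capitals mark matches to TTGCNNAA or its reverse complement TTNNGCAA, the binding sequence of C/EBP factors such as C/EBP epsilon, which is required for specific granules.
Mmp8, chr9:7558179-7558428: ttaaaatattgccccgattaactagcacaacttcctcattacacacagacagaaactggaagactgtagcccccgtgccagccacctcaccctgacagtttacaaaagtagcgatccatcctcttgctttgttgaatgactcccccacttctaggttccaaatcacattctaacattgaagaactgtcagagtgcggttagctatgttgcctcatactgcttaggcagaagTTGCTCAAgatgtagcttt
Ceacam10, chr7:24776954-24777203: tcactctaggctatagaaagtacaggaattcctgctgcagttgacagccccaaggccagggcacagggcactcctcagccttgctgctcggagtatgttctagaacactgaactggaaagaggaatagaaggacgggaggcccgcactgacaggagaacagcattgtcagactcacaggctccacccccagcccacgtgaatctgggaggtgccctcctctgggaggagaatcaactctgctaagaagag
Ltf, chr9:111019042-111019291: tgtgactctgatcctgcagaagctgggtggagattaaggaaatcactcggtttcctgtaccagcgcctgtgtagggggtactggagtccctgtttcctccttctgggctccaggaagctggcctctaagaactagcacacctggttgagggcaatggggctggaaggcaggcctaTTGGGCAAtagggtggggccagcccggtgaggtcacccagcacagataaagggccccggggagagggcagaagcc
Ngp, chr9:110419558-110419807: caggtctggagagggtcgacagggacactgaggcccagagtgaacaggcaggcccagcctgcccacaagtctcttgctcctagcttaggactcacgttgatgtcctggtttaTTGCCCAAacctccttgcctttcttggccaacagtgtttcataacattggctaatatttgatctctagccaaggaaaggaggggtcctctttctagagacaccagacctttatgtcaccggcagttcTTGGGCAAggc
The Mmp8 match, TTGCTCAA, begins 19 bases before the start site, and the Ltf match, TTGGGCAA, begins 75 bases before it. Ngp has 2 matches, TTGCCCAA beginning 138 bases and TTGGGCAA beginning 11 bases before the start, and the Ceacam10 window holds none. In windows of 300 bases (250 before and 50 after the start), searched on both strands, 10 of the 26 granule genes with a RefSeq window held a match, 5 of 14 in the specific class. Of all 27025 genes with such windows 12.2% held one. The 10 were Ms4a3, Ltf, Ngp, Lcn2, Mmp8, Fcnb, Anxa1, Adam8, Mgst1 and Cst7. Start sites here are those of RefSeq and differ from the GENCODE gene starts. The sequences shown for Ltf and Ngp therefore run into the gene spans given above, and the Ngp match nearest the start lies inside its span. A match describes letters in the window and is no evidence of binding.

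Among the other specific granule genes at 6 h, several lay above vehicle in part and none passed the test. Lcn2 was at 338, 372 and 923 CPM in vehicle and 968, 701 and 1278 CPM at 6 h, with 347, 483 and 412 CPM at 1 h and 426, 568 and 737 CPM at 24 h. Of the vehicle libraries only replicate 3 reached the 6 h range of Lcn2, and 24 h replicate 3 reached it too. Its log2 fold change was 0.85 (SE 0.35, adjusted p = 0.19) against vehicle and 1.25 (SE 0.35, adjusted p = 0.096) against 1 h. Without vehicle replicate 3 Lcn2 joined Mmp8 and Ceacam10 among the genes called at 6 h, where 2.52% of all genes were called. Olfm4 (olfactomedin 4), made by a subset of neutrophils, was at 25.6, 15.6 and 62.1 CPM in vehicle, 25.3, 22.5 and 18.8 CPM at 1 h, 45.7, 30.6 and 67.9 CPM at 6 h and 10.2, 13.5 and 20.5 CPM at 24 h. Its 6 h and 24 h libraries did not overlap, with a log2 fold change of -1.71 from 6 to 24 h (SE 0.43, adjusted p = 0.054). Ngp was at 817, 715 and 1983 CPM in vehicle, 549, 715 and 464 CPM at 1 h, 1351, 701 and 2011 CPM at 6 h and 334, 745 and 1530 CPM at 24 h, so each group overlapped vehicle.

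Ltf and Camp, also of the specific class, had negative fitted changes against vehicle at each time, and none passed. The same sign at each time was found for Chil3, Hp and Itgb2l of that class. Ltf encodes lactoferrin, the iron-binding protein that defines specific granules. It was at 116, 69.5 and 189 CPM in vehicle, 65.9, 64.9 and 53.3 CPM at 1 h, 75.1, 36.0 and 76.6 CPM at 6 h and 58.9, 68.1 and 113 CPM at 24 h. The 1 h libraries were all below vehicle, and at 6 and 24 h the groups overlapped it. Its log2 fold change was -1.02 (SE 0.35, adjusted p = 0.43) after 1 h, -0.997 (SE 0.35, adjusted p = 0.13) after 6 h and -0.64 (SE 0.35, adjusted p = 0.67) after 24 h. Camp, the precursor of the antimicrobial peptide cathelicidin, was at 5.11, 4.51 and 6.49 CPM in vehicle and 1.91, 1.94 and 1.29 CPM at 1 h, with no overlap. At 6 h it was at 3.29, 1.73 and 7.84 CPM and at 24 h at 2.68, 2.38 and 5.31 CPM. Its log2 fold change at 1 h, -1.64 (SE 0.51, adjusted p = 0.33), was the largest in size of any granule gene at that time and did not pass.

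The other 8 specific granule genes passed in no comparison. Chil3, a chitinase-like protein that monocytes also make, ran from 103 to 356 CPM over the 12 libraries, Hp (haptoglobin, which binds free haemoglobin) from 127 to 197 CPM and Ceacam1 from 196 to 307 CPM. Abca13, a lipid transporter, ran from 37.5 to 96.5 CPM, Cd177, a surface glycoprotein of neutrophils, from 40.2 to 90.1 CPM and Pglyrp1, a peptidoglycan-binding protein, from 12.3 to 35.7 CPM. Itgb2l, an integrin beta chain, stayed at or below 4.20 CPM and Fcnb (ficolin B, a lectin of complement) at or below 2.21 CPM. For Cd177 the 1 h libraries (40.2, 41.9 and 47.0 CPM) lay below vehicle (53.1, 51.7 and 90.1 CPM), with a log2 fold change of -0.59 (SE 0.23, adjusted p = 0.55). Hp and Chil3 had the smallest log2 fold changes of these 8 at 6 h against vehicle, -0.10 and -0.03. Fcnb had the most negative fold change at 6 h, -1.20 (SE 0.77, adjusted p = 0.42), on 92 counts in all.

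The azurophil class stayed near the floor of detection and none of its 4 tested genes passed in any comparison. Mpo was at 1.51, 1.72 and 3.56 CPM in vehicle, 5.85, 3.76 and 1.51 CPM at 1 h, 4.48, 4.46 and 5.01 CPM at 6 h and 1.86, 3.90 and 3.44 CPM at 24 h. The 6 h libraries lay above vehicle and the 1 h libraries spread across the whole range. Its log2 fold change was 0.70 (SE 0.49, adjusted p = 0.87) after 1 h, 1.04 (SE 0.49, adjusted p = 0.26) after 6 h and 0.73 (SE 0.42, adjusted p = 0.60) for the 3 times averaged. Elane ran from 0.538 to 3.56 CPM and Prtn3 from 1.05 to 5.12 CPM. Prtn3 was higher at 24 h (5.12, 3.03 and 2.81 CPM) than at 6 h (1.05, 1.24 and 2.57 CPM) without overlap, and its log2 fold change of 1.17 (SE 0.47, adjusted p = 0.16) did not pass. Prss57 ran from 0.545 to 2.97 CPM and had the smallest p of the class at 24 h against vehicle (log2 fold change 0.63, SE 0.60, adjusted p = 0.84), at 6 h against 1 h (0.98, SE 0.62, adjusted p = 0.39) and at 24 h against 1 h (1.08, SE 0.61, adjusted p = 0.90). Mpo, Prtn3 and Prss57 overlap genes on the opposite strand, and the counting's strand setting was not given in the sources used here.

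The gelatinase class overlapped vehicle at 6 and 24 h in every gene. Mmp9 (gelatinase B) was at 289, 267 and 401 CPM in vehicle, 257, 229 and 316 CPM at 1 h, 394, 318 and 347 CPM at 6 h and 432, 300 and 247 CPM at 24 h. Mmp25, a membrane-bound metalloprotease, was at 30.1, 33.3 and 54.5 CPM in vehicle and 20.2, 24.6 and 24.9 CPM at 1 h, with no overlap. Its log2 fold change was -0.76 at 1 h (SE 0.25, adjusted p = 0.40), -0.40 for the mean of the 3 times (SE 0.20, adjusted p = 0.51) and 0.69 for 6 h against 1 h (SE 0.25, adjusted p = 0.15). Anxa1, an inhibitor of neutrophil recruitment, was at 558, 626 and 915 CPM in vehicle, 455, 541 and 494 CPM at 1 h, 753, 544 and 1031 CPM at 6 h and 346, 453 and 643 CPM at 24 h. It had the smallest p of the class at 24 h against vehicle (log2 fold change -0.54, SE 0.27, adjusted p = 0.64) and against 6 h (-0.69, SE 0.27, adjusted p = 0.16). Adam8, a metalloprotease that sheds surface proteins, ran from 41.7 to 108 CPM, with log2 fold changes of -0.33 at 6 h against vehicle (SE 0.25, adjusted p = 0.52) and 0.37 at 24 h against 1 h (SE 0.25, adjusted p = 0.94). Anxa1, Mmp25 and Adam8 also overlap opposite-strand genes.

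Lyz2 was the only granule gene with all 9 treated libraries below all 3 vehicle libraries, a pattern shown by 0.77% of the genes tested. The opposite pattern was found for 0 granule genes and 1.3% of the genes tested. It was at 4754, 4201 and 3810 CPM in vehicle, 2397, 3033 and 3067 CPM at 1 h, 3091, 3461 and 3428 CPM at 6 h and 3196, 2873 and 3061 CPM at 24 h. The 3 times averaged gave, against vehicle, a log2 fold change of -0.48 (SE 0.15, adjusted p = 0.20), and 1 h alone gave -0.59 (SE 0.19, adjusted p = 0.35), so edgeR called neither. DESeq2 called both (adjusted p = 0.0058 and 0.010). The summed level of 10 classical monocyte markers was 3290, 2270 and 1948 CPM in vehicle, in the same order as Lyz2, 1775 to 2820 CPM at 1 h, 1506 to 1839 CPM at 6 h and 1882 to 2944 CPM at 24 h. Its part in the Lyz2 result was not tested. Per 1000 mature neutrophil counts Lyz2 was at 589, 417 and 269 in vehicle and 261, 293 and 301 at 1 h, with overlap.

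Of the remaining granulocyte genes Mgst1, a microsomal glutathione transferase, came nearest the threshold. It was at 78.0, 105 and 123 CPM in vehicle, 73.5, 80.1 and 79.5 CPM at 1 h, 123, 101 and 196 CPM at 6 h and 114, 101 and 110 CPM at 24 h. The 1 h libraries lay below all at 6 and 24 h. Its log2 fold change was 0.85 for 6 h against 1 h (SE 0.22, adjusted p = 0.084), 0.49 for 24 h against 1 h (SE 0.22, adjusted p = 0.81), 0.46 for 6 h against vehicle (SE 0.22, adjusted p = 0.28) and -0.37 for 24 h against 6 h (SE 0.22, adjusted p = 0.36). Serpinb1a, which inhibits the azurophil serine proteases, was at 16.9, 14.6 and 22.4 CPM in vehicle and 8.62, 8.99 and 13.9 CPM at 24 h, with a log2 fold change of -0.78 (SE 0.30, adjusted p = 0.51). Padi4, which citrullinates histones in neutrophils, ran from 13.5 to 35.6 CPM, Cst7 (cystatin F, a protease inhibitor) from 1.03 to 3.54 CPM and Cebpe, the C/EBP epsilon factor itself, from 2.27 to 5.73 CPM.

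Classes are described by counts and medians. At 1 h against vehicle 0 of 29 granule genes passed the edgeR test, against 0.194% of all genes (0.179% higher and 0.0149% lower), with 7 at an unadjusted p under 0.05 (6.99% of all genes), 1 called by DESeq2 (Lyz2) and 0 by limma-voom. Fold changes were negative in 26 of the 29, with a median of -0.50 where the median of all genes was -0.02, and the specific class had a median of -0.63. At 1 h 8 of 29 genes lay below vehicle without overlap (Ltf, Camp, Cd177, Mmp25, Anxa1, Cebpe, Lyz2 and Serpinb1a), or 27.6%, where 8.44% of all genes did. No granule gene lay above vehicle without overlap at 1 h, where 8.92% of all genes did. Vehicle replicate 3 was the highest vehicle library in all of these 8 but Lyz2.

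At 6 h 3 of 29 genes lay above vehicle without overlap (Mpo, Mmp8 and Ceacam10; 15.8% of all genes did) and 1 lay below (Lyz2; 13.5% of all genes). The median log2 fold change was -0.01 over the 29 genes and 0.16 over the specific class, beside -0.04 over all genes. With library totals alone the specific class had a median of -0.29 beside -0.50 over all genes. At 24 h against vehicle 0 of 29 passed, against 0.105% of all genes, with 3 at an unadjusted p under 0.05 (8.37% of all genes) and 0 by DESeq2 or limma-voom. There Olfm4 had the smallest p (log2 fold change -1.23, SE 0.43, adjusted p = 0.47). Lyz2 and Serpinb1a lay below vehicle without overlap (5.61% of all genes did) and 0 lay above (6.34%). The mean of the 3 times against vehicle called 0 of 29, against 0.934% of all genes (0.882% higher and 0.0523% lower), with 4 at an unadjusted p under 0.05 (10.5% of all genes), 1 by DESeq2 (Lyz2) and 0 by limma-voom. Ltf had the smallest p in it (-0.89, SE 0.27, adjusted p = 0.19).

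**Figure D3:**
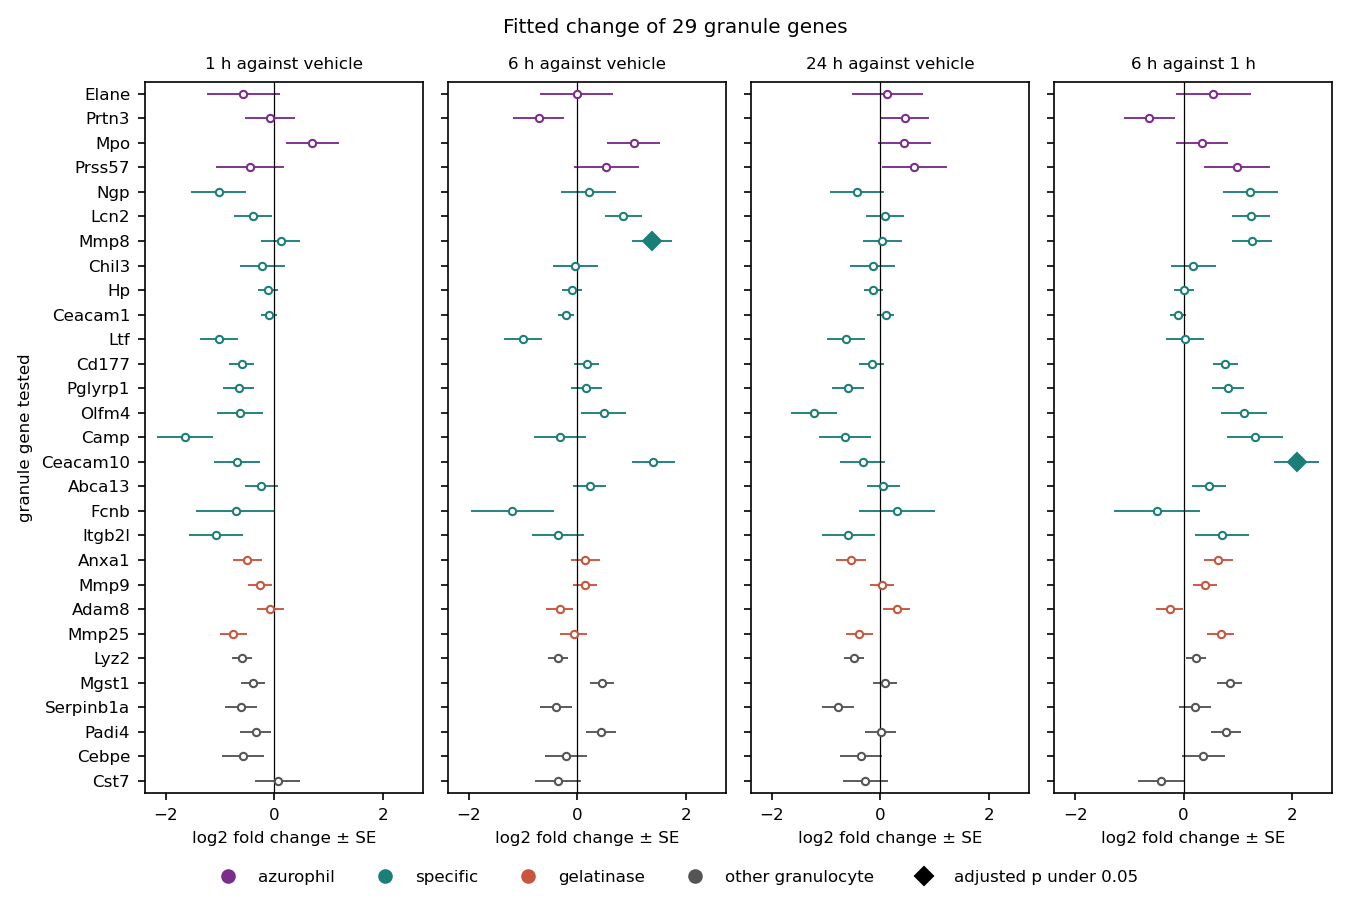
Fitted log2 fold change with its SE for the 29 granule genes tested, in 4 comparisons, coloured by class, with a diamond where the adjusted p was under 0.05. Diamonds mark Mmp8 at 6 h against vehicle and Ceacam10 at 6 h against 1 h, and at 1 h against vehicle 26 of 29 points lie left of 0.

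Most granule genes had higher fitted levels at 6 h than at 1 h. This comparison does not use the vehicle mean, though the vehicle libraries share in its filter, scaling and estimate of spread. Fold changes were positive in 24 of 29 genes, with a median of 0.55 over the 29 and 0.77 over the specific class, beside 0.00 over all genes. No overlap, with 6 h higher, was found for 11 of 29 genes (Lcn2, Mmp8, Cd177, Olfm4, Ceacam10, Abca13, Mmp9, Mmp25, Anxa1, Lyz2 and Mgst1), or 37.9%, where 18.1% of all genes did. At an unadjusted p under 0.05 there were 12 of 29, all with positive fold changes, where 20.7% of all genes had such a p in either direction. The pattern was not particular to the granule genes. Of 25 mature neutrophil markers 16 had positive fold changes and 11 had such a p. All 17 reticulocyte and 7 platelet markers were positive, with 11 and 3 at such a p, and 4 of 10 classical monocyte markers were positive. Genes measured in the same libraries are not independent of each other. No granule gene was lower without overlap, where 13.8% of all genes were. With library totals alone 16 of 29 were positive and the specific class median was 0.33, beside -0.43 over all genes. The number called went from 1 of 29 to 5 with DESeq2 (Cd177, Ceacam10, Lcn2, Mgst1 and Mmp8) and to 7 when only the groups compared were fitted, and over all genes the share called went from 0.493% to 6.34% and 13.8%. The reticulocyte sums were also higher at 6 h, as given above, and their part in these values was not tested.

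At 24 h against 1 h 0 of 29 passed, against 0.0224% of all genes, with 1 at an unadjusted p under 0.05 (6.11% of all genes) and 0 by DESeq2 or limma-voom. There Camp had the smallest p of its class (0.99, SE 0.52, adjusted p = 0.88). The genes above 1 h without overlap were Camp, Ceacam1, Mmp25 and Mgst1 (4 of 29; 5.64% of all genes did), and 0 were below (4.74%). From 6 to 24 h Mpo, Mmp8, Olfm4 and Ceacam10 lay lower without overlap (4 of 29; 12% of all genes did), and Prtn3 and Ceacam1 lay higher (2 of 29; 10.5% of all genes did). At an unadjusted p under 0.05 there were 8 of 29 genes, where 22.1% of all genes had such a p. The Mmp8 change from 6 to 24 h, -1.35 (SE 0.37, adjusted p = 0.066), missed the threshold in edgeR and passed in DESeq2 (adjusted p = 0.0060) and limma-voom (adjusted p = 0.045). With library totals alone this comparison gave 3 higher and 2 lower granule genes in place of 0 higher and 1 lower, where 20.1% of all genes were called higher and 1.94% lower, and the median of all genes moved to 0.56.

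Ratios of 2 granule genes within a library do not depend on how libraries are scaled. Mmp8 over Ltf, collagenase against lactoferrin within the specific class, stood in vehicle at 1.63, 4.04 and 3.05, after 1 h at 4.19, 6.36 and 8.48, after 6 h at 12.7, 17.5 and 14.99 and after 24 h at 4.13, 6.03 and 3.70. Every 6 h library was above all other libraries and every 1 h library was above vehicle. The difference in log2 ratio was 2.46 between 6 h and vehicle. Lcn2 over Ltf was 2.92, 5.35 and 4.87 in vehicle and 12.9, 19.5 and 16.7 at 6 h, a log2 difference of 1.93. Ngp over Ltf was 7.06, 10.3 and 10.5 in vehicle and 18.0, 19.5 and 26.2 at 6 h, a log2 difference of 1.20. Olfm4 over Ltf was 0.221, 0.224 and 0.328 in vehicle and 0.608, 0.849 and 0.886 at 6 h, a log2 difference of 1.61. Ceacam10 over Ltf differed by 2.43, Ceacam10 over Ceacam1 by 1.68 and Mmp8 over Mmp9 by 1.34. The 7 pairs were chosen after the fits were seen, most of them as a gene high at 6 h over one that was not. Of these pairs 5 share Ltf. That the ratios separated 6 h from the other groups therefore follows from the choice, and no p-value is given for it.

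**Figure D4:**
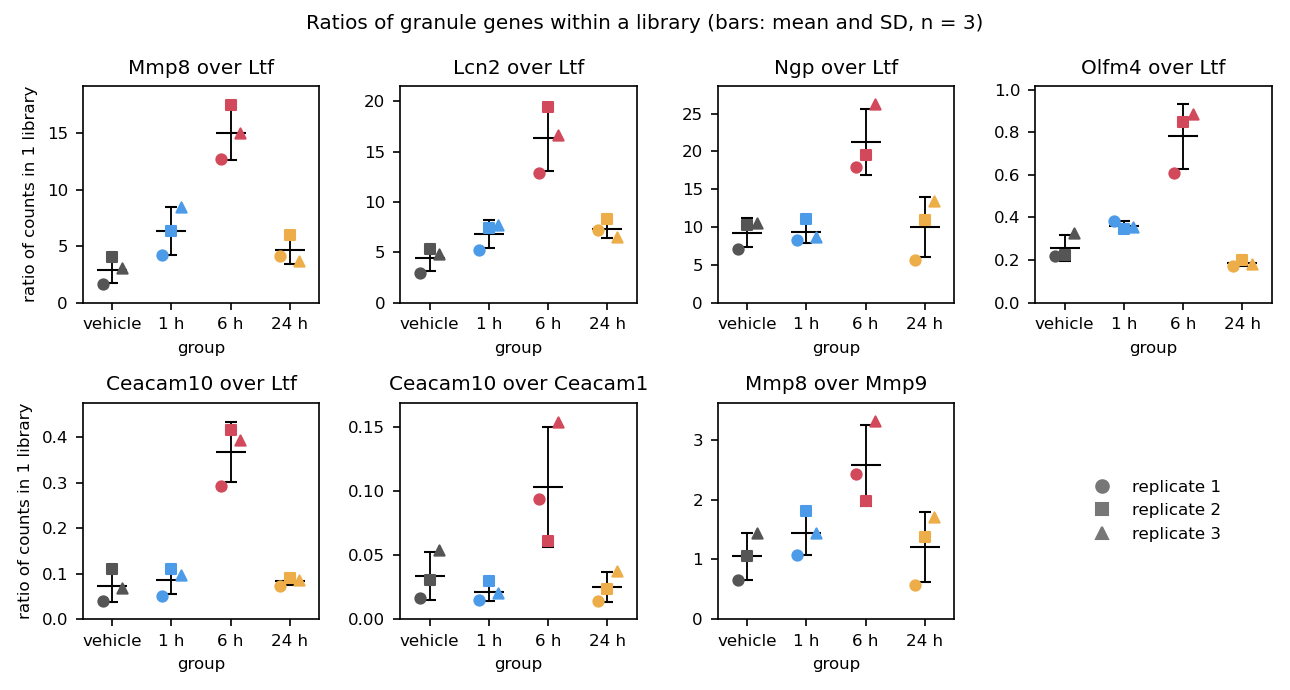
Ratio of the counts of 2 granule genes within each library (linear axis from 0), by group, with the mean and SD of 3 libraries as bars. In all 7 panels the 3 points at 6 h lie above the points of the other groups, for example 12.7 to 17.5 for Mmp8 over Ltf against 1.63 to 4.04 in vehicle.

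Set against the neutrophil markers of the same library, Mmp8 was also highest at 6 h. Per 1000 counts of the 25 mature neutrophil markers there were 23.4, 27.9 and 40.8 Mmp8 counts in vehicle, 30.1, 39.8 and 44.3 after 1 h, 85.3, 61.9 and 77.2 after 6 h and 24.5, 43.8 and 43.5 after 24 h. Ceacam10 was at 0.576, 0.758 and 0.925 in vehicle and 1.96, 1.47 and 2.03 at 6 h, and Lcn2 at 41.8, 37.0 and 65.1 in vehicle and 86.6, 68.8 and 85.9 at 6 h, again without overlap. At 24 h Lcn2 was at 42.9, 60.6 and 76.3, so 24 h replicate 3 lay within its 6 h range. Ltf was at 14.4, 6.91 and 13.4 in vehicle and 6.72, 3.54 and 5.15 at 6 h, so its 6 h libraries were all below vehicle. These 4 genes were chosen after the fits were seen, and the differences are given with no p-value. The share of all genes without overlap on this scale is not given. The specific class as a whole overlapped, at 216 to 337 per 1000 in vehicle and 283 to 368 at 6 h, and so did the azurophil class, at 0.598 to 0.988 in vehicle and 0.775 to 0.960 at 6 h. None of the 25 mature neutrophil markers was called in any of the 7 comparisons by edgeR. At 6 h against vehicle 5 of them had an unadjusted p under 0.05, where 19.6% of all genes did. DESeq2 and limma-voom each called 2 of them there, against 8.67% and 4.98% of all genes. Between times more of the 25 markers had an unadjusted p under 0.05. There were 11 at 6 h against 1 h (20.7% of all genes) and 13 at 24 h against 6 h (22.1% of all genes), so the markers were not flat over time.

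**Figure D5:**
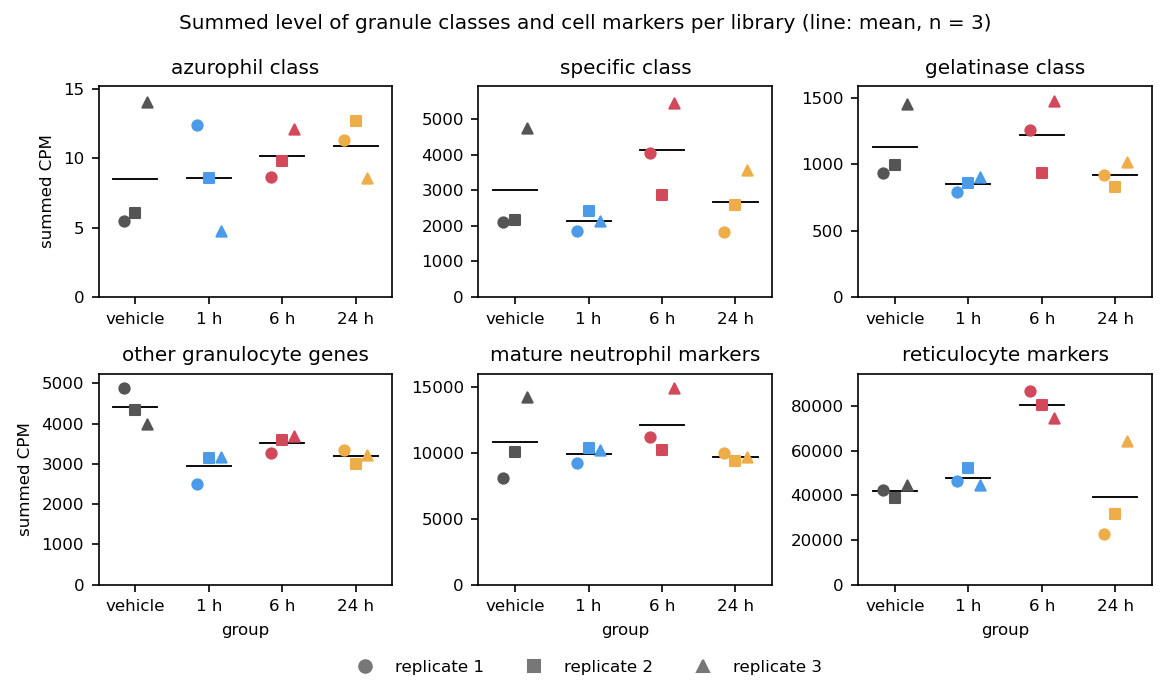
Summed level in CPM of the 4 granule gene classes, 25 mature neutrophil markers and 17 reticulocyte markers in each library, by group, with the mean of 3 libraries as a line. Vehicle replicate 3 is the highest vehicle point for the azurophil, specific and gelatinase classes and the neutrophil markers, and the reticulocyte sums at 6 h (74442 to 86738 CPM) lie above all other groups.

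Genes that work with the granules were counted from lists. At 6 h against vehicle edgeR called 4.84% of all genes, DESeq2 8.67% and limma-voom 4.98%, and 19.6% had an unadjusted p under 0.05. Granulopoiesis transcription factors (15 tested) had 1 call, Gata2, a factor of early progenitors and mast cells, higher at 6 h against vehicle (log2 fold change 0.88, SE 0.23, adjusted p = 0.044), where the median of the list was -0.26. Nothing else on that list passed: at 1 h Cebpd had the smallest p (-0.40, adjusted p = 0.64), and at 6 h against 1 h Cebpa, which starts granulocyte commitment, had it (-0.79, adjusted p = 0.10). The 6 genes of the NADPH oxidase, which makes superoxide in the phagosome, had 0 calls by edgeR in the 7 comparisons, with Cybb nearest at 6 h against vehicle (-0.53, adjusted p = 0.10, and 1 at an unadjusted p under 0.05, with 1 call by DESeq2 and 0 by limma-voom). The 15 genes of the degranulation machinery also had 0 edgeR calls. Stx3, a syntaxin of granule fusion, came nearest at 6 h against vehicle (-0.88, adjusted p = 0.053), where 4 had an unadjusted p under 0.05, DESeq2 called 1 and limma-voom 0. The protease inhibitors and processing genes (7 tested of 9) had 0 edgeR calls, with 0 at an unadjusted p under 0.05 at 6 h against vehicle and 0 calls there by DESeq2 or limma-voom. Ctsc, the protease that activates the azurophil serine proteases, had their smallest p (-0.34, adjusted p = 0.28).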

How the data were processed

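RNA of mouse whole blood was extracted with a PAXgene kit and sequenced after ribosomal RNA depletion, per the labels. The authors deposited whole-number counts per Ensembl gene for 12 libraries. The submitters' processing notes name RSEM, without a version, and the genome build hg38 although the identifiers are mouse, so the counts may be rounded estimates. Sources used here give no aligner, annotation or strand setting.

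Counts were analysed with edgeR 4.0.16 in R 4.3.3: filterByExpr by group (13384 genes of 55367 rows kept), TMM scaling, and a quasi-likelihood model with 4 group means over all 12 libraries. The 7 comparisons set 1 h, 6 h, 24 h and the average of these times against vehicle, and the times against each other. Benjamini-Hochberg adjustment ran over all genes tested, and calls had an adjusted p under 0.05. Every adjusted p is from this model unless another tool is named. The 3 comparisons with vehicle share their 3 vehicle libraries. SE is the size of the log2 fold change divided by the square root of F. Positions and exon lengths are from GENCODE M21, which held all 31 genes, and promoter windows are from RefSeq. The model was tested on simulated data.

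Members and lists were chosen with earlier results of these data known. All 31 genes were named; statistics went to members called in any comparison and otherwise to the member of each class with the smallest p, and further members were described after their values were seen. From the cell type lists only called genes were named. Alternatives in scaling were DESeq2 size factors, library totals alone and mature neutrophil counts. Alternatives in filtering were none and at least 5 CPM in 3 libraries. Other tools were DESeq2 1.42.0 and limma-voom (limma 3.58.1). Further fits used only the groups under comparison, a block for replicate number, or 11 of the 12 libraries. Intervals and floors cover counting error only. The floor is 3 counts.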

Additional observations from a re-analysis of the deposited data

Results flagged for a closer look

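Ceacam10 stood out because its level differed between times of collection by a test of the difference itself. The log2 fold change was 2.09 for 6 h against 1 h (edgeR adjusted p = 0.049) and -1.74 for 24 h against 6 h (edgeR adjusted p = 0.048). Both calls sat at the threshold, and of 12 fits that each left out 1 library 8 lost the first and 10 lost the second. The 6 h libraries shared by both comparisons were at 22.0, 14.97 and 30.2 CPM. All 3 lay above every 1 h library (3.40 to 7.07 CPM) and every 24 h library (4.31 to 9.85 CPM).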

How the results depend on the processing

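Counts of granule genes called are given with the share of all genes called in parentheses. At 1 h against vehicle 0 were called (0.194%), with 3 under no filter (1.11%), 1 with DESeq2 (1.21%) and 1 with only the groups compared (1.62%). At 6 h against vehicle 1 was called (4.84%), with 3 under library totals alone (13.6%), 4 under no filter (4.89%) and 2 with DESeq2 (8.67%), limma-voom (4.98%) or only the groups compared (11.1%). At 24 h against vehicle 0 were called (0.105%), and 1 under no filter (0.916%). For the mean of the 3 times 0 were called (0.934%), and 1 under library totals alone (1.03%), no filter (1.93%) or DESeq2 (2.76%). At 6 h against 1 h 1 was called (0.493%), with 0 under DESeq2 size factors (0.374%), 9 under no filter (4.74%), 5 with DESeq2 (6.34%) and 7 with only the groups compared (13.8%). At 24 h against 6 h 1 was called (1.76%), with 5 under library totals alone (22%), 0 scaled to neutrophil counts (0.0523%), 5 under no filter (5.71%), 2 under the filter of 5 CPM (4.65%), 3 with DESeq2 (9.1%) or limma-voom (5.45%) and 0 with only the groups compared (0%). At 24 h against 1 h it was 0 in the reported fit and in all 9 alternatives and 12 leave-one-out fits. The cause of these differences was not tested.

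Over all genes tested, same-numbered libraries did not deviate together (correlations -0.11 to 0.17 over groups, not all above 0.1). That check covers all genes at once, so it cannot show whether same-numbered libraries deviated together in the granule genes. For Ngp, Ltf, Camp and Olfm4, replicate 3 was the highest library in vehicle, at 6 h and at 24 h, and the lowest at 1 h. For Mmp9 replicate 3 was highest in vehicle and at 1 h, and replicate 1 at 6 and 24 h. A shared deviation of the granule genes was not tested. A block for replicate number took the SE at 6 h against vehicle from 0.37 to 0.28 for Mmp8 and from 0.40 to 0.32 for Ceacam10. With the replicate number as a block, 2 granule genes were called at 6 h against vehicle (Ceacam10 and Mmp8, where 4.66% of all genes were called) and 3 at 24 h against 6 h (Ceacam10, Mmp8 and Olfm4, where 3.12% were), and the block left the count at 0, 0, 0, 1 and 0 in the other comparisons.

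Leaving out 1 library at a time gave 0 to 3 calls at 6 h against vehicle (1.74% to 8.99% of all genes). It gave 0 to 1 for the mean of the 3 times (0.102% to 2.56% of all genes). At 6 h against 1 h it gave 0 to 5 (0.0289% to 9.12%) and at 24 h against 6 h 0 to 4 (0% to 15.9%), both highest without 24 h replicate 3. At 6 h the call of Mmp8 remained without vehicle replicate 3, 24 h replicate 1 or 24 h replicate 3 and was lost without any of the other 9 libraries. For Ceacam10 the call at 6 h against 1 h was lost in 8 of 12 such fits and that at 24 h against 6 h in 10. Small changes turned sign: Mmp8 ran from -0.16 to 0.72 at 1 h against vehicle, from -0.27 to 0.62 at 24 h against vehicle and from -0.29 to 0.11 at 24 h against 1 h, and Ceacam10 from -0.68 to 0.13 at 24 h against vehicle and from -0.17 to 0.59 for the mean of the 3 times. With library totals alone Mgst1 at 24 h against 6 h was 0.16 and Ceacam10 for the mean of the 3 times was -0.022. With 1 library left out, an alternative chosen after seeing the data, the log2 difference of Mmp8 over Ltf between 6 h and vehicle was 2.09 to 2.74. With 3 libraries a group and azurophil genes under 6 CPM, changes in that class were not detectable at this depth unless large.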

Other observations

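Of 10 proliferation genes tested, 2 were called higher at 6 h against vehicle, where 4.06% of all genes were. Nusap1, a spindle protein, rose (log2 fold change 2.20, edgeR adjusted p = 0.0038), as did Ube2c, a cell cycle ubiquitin ligase partner (2.03, edgeR adjusted p = 0.0024). Both fell from 6 to 24 h (-1.60 and -1.50). The summed level of the 10 genes was 555 to 683 CPM in vehicle, 871 to 1002 at 1 h, 1640 to 1695 at 6 h and 396 to 1114 at 24 h. Among 10 classical monocyte markers Ccr2, a chemokine receptor, fell at 6 h (-0.63, edgeR adjusted p = 0.048), where 0.785% of all genes were called lower. Of 17 reticulocyte markers 12 were called higher at 6 h against vehicle, where 4.06% of all genes were. Markers of other blood cells gave 0 edgeR calls at 6 h against vehicle: of 7 platelet markers 3 had an unadjusted p under 0.05 and DESeq2 called 2, of 2 eosinophil markers tested 1 had such a p and DESeq2 called 1, and of 3 basophil and mast cell and 6 NK cell markers 0 had such a p and DESeq2 called 0. Limma-voom called 0 of these markers. Of all genes 19.6% had an unadjusted p under 0.05 in that comparison, and DESeq2 called 8.67% and limma-voom 4.98%.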
